A study of Mus musculus with 48 samples.

Results

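The 9 genes described here carry peptides to the cell surface on major histocompatibility complex (MHC) class I molecules. They were chosen by name from the 55357 genes of the deposited count table and read in all 48 libraries: B2m, H2-D1, H2-K1, H2-T23, H2-M3, Tap1, Tap2, Tapbp and Nlrc5. The libraries came from C57BL/6J wild-type mice, labelled 6 to 8 weeks old in the series record while the study's methods state an older range, that had received either kainate or saline into the hippocampus of one side. The dorsal dentate gyrus was microdissected 3, 7 or 14 days later from the injected side, called the epileptogenic zone (EZ), and from the opposite side, called the peri-ictal zone (PIZ). Each of the 12 groups (EZ or PIZ, kainate or saline, day 3, 7 or 14) held 4 mice, and each of the 24 mice gave 1 library from each side, so the EZ and PIZ libraries of a mouse are not independent. By design each group had 2 males and 2 females, but the labels do not give the sex of each library. All kainate mice were included on a behavioural seizure scored without electrical recording, all mice received acetaminophen in their food after surgery, and the animals differ between days.

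Total counts per library lay between 17762656 and 25712975. The smallest count of any of the 9 genes in any library was 13, so all 9 genes passed the filter on low counts, by which 21390 genes were tested. Prox1, a transcription factor that marks dentate granule cells, averaged 247 CPM over the 48 libraries, CPM being the count scaled to a common library size. No other tissue was at hand for comparison, so this level does not test the tissue label. Among the EZ libraries of kainate mice on day 14, that of mouse 27 stood apart, at −122 on the first principal component against 2.43 to 26.3 for the other 3. On day 7, kainate mouse 21 had the highest EZ level of all 9 genes and the lowest PIZ level of 8 of them.

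A class I molecule is a heavy chain held together with beta-2-microglobulin, and it displays short peptides cut from proteins inside the cell. Peptides made by the proteasome are pumped into the endoplasmic reticulum by the transporter TAP, a dimer of TAP1 and TAP2, and are loaded with the help of tapasin, the product of Tapbp. H2-D1 and H2-K1 encode the classical heavy chains of the mouse, H2-T23 encodes the nonclassical Qa-1, which is read by receptors of natural killer and CD8 T cells, and H2-M3 encodes a heavy chain that presents N-formylated peptides. NLRC5 is the transactivator that raises transcription of the class I genes, working with factors bound at the X and Y boxes of their promoters. Interferons induce these genes in most cell types, and in the healthy brain class I is low in neurons and is readily induced in microglia, astrocytes and endothelium.

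Of the 9 genes, 7 lie within 3.45 megabases of chromosome 17 (GRCm39): Tapbp at chr17:34134873-34148267, H2-K1 at chr17:34214987-34219321, Tap1 at chr17:34405996-34416199, Tap2 at chr17:34422501-34435829, H2-D1 at chr17:35481691-35486475, H2-T23 at chr17:36340229-36345571 and H2-M3 at chr17:37581106-37585384. B2m lies at chr2:121977957-121983594 and Nlrc5 at chr8:95160984-95253900. H2-K1 and H2-T23 are on the minus strand and the others on the plus strand. Class I heavy chain genes are close paralogs and their reads can align to several of them, and reads with several alignments were counted at the primary one, so the split of counts among H2-D1, H2-K1, H2-T23 and H2-M3 is uncertain. The annotation also places Zbtb22 over Tapbp, Gm20429 over H2-M3 and Mir7072 over Nlrc5 on the same strand, and reads in those stretches went to the gene with the largest overlap. The neighbours on the opposite strand, Psmb9 beside Tap1 and Patl2 beside B2m, were counted separately because the counting used strand.

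Promoter sequences were read for 7 of the 9 genes, as the 250 bases before the transcription start in RefSeq (table build GRCm38.p6), placed on GRCm39 by an exact match of the letters; Tap2 and Nlrc5 had no entry. The 4 windows that share an X2 and a Y box at the same distance are shown because NLRC5 acts through these boxes. Capitals mark the X2 core TGACG, the Y box CCAAT in either orientation (ATTGG on the shown strand), the interferon-stimulated response element (ISRE) GAAANNGAAA, the kappa B motif GGGNNTTNCC and the interferon gamma activated site (GAS) TTCNNNGAA. B2m is chr2:121977918-121978167 on the plus strand, H2-D1 chr17:35481820-35482069 on the plus strand, H2-K1 chr17:34219308-34219557 on the minus strand, shown for the downstream of its 2 RefSeq starts, and H2-M3 chr17:37580875-37581124 on the plus strand.
B2m: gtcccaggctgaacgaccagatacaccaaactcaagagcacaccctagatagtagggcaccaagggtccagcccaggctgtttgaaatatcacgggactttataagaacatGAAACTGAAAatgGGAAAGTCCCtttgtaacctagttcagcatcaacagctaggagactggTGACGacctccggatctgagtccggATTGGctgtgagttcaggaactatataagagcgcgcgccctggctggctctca
H2-D1: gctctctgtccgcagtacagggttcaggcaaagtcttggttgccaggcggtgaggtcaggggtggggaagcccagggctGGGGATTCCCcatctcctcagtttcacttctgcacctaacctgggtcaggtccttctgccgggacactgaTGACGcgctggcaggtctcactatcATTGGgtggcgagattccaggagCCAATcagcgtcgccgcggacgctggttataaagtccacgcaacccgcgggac
H2-K1: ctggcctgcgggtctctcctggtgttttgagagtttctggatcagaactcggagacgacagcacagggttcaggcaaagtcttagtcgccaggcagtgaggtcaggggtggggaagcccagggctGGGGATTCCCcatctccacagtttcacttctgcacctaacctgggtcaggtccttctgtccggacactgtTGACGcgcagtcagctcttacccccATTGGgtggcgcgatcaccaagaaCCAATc
H2-M3: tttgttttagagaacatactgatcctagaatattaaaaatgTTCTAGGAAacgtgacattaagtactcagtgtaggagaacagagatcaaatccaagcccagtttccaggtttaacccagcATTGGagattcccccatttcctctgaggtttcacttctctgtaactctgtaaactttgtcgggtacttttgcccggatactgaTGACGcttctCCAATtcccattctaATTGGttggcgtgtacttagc

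In these 4 windows TGACG was followed after 20 bases by ATTGG, beginning 78 bases upstream of the RefSeq start in B2m, 101 in H2-D1, 55 in H2-K1 and 46 in H2-M3. This spacing was noticed after the windows were seen. Searched on both strands, it occurred in 0.0913% of all 32851 windows of the same length. In the 4 windows it lay on the strand of the gene. Searched in the same way, TGACG alone was in 5 of the 7 windows (B2m, H2-D1, H2-K1, H2-M3 and Tap1) and in 17.8% of all windows. CCAAT was in all 7 and in 33.8% of all windows. The kappa B motif was in B2m, H2-D1 and H2-K1 and in 4.11% of all windows, the ISRE in B2m and H2-T23 and in 2.98%, and the GAS in H2-M3 and in 7.02%. A match of letters is a description of the window and not a bound site. Only exact strings were counted, so an element that departs from the string in a fixed base was missed. The missing ISRE match in H2-D1, H2-K1 and H2-M3 therefore does not show that these windows lack an interferon element. In the gene models used here the gene begins farther upstream than in RefSeq, so 211 of the 250 bases of the B2m window, all 250 of H2-D1, 14 of H2-K1 and 19 of H2-M3 lie within the annotated gene.

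Levels per gene length (RPKM, the CPM divided by the exon length in kilobases) give the order of the 9 genes within a group. In the PIZ of saline mice on day 7, B2m stood highest at 32.6 ± 5.09 (SD, n = 4), followed by H2-D1 at 9.44, H2-K1 at 5.37, Tapbp at 3.36, H2-T23 at 1.67, Tap2 at 1.5, H2-M3 at 0.781, Tap1 at 0.483 and Nlrc5 at 0.114 ± 0.0185. In the EZ of kainate mice on day 7, B2m was at 428 ± 158, H2-D1 at 178 ± 83.9, H2-K1 at 110 ± 44.1, H2-T23 at 24.7 ± 10.4, Tapbp at 22.7 ± 9.62, H2-M3 at 7.02 ± 3.49, Tap2 at 6.79 ± 2.44, Tap1 at 6.65 ± 2.97 and Nlrc5 at 2.96 ± 1.21 (SD, n = 4). B2m and the classical heavy chains led in both groups and the transactivator was lowest in both. In the kainate group the means of H2-T23 and Tapbp lay within their SD of each other, as did those of H2-M3, Tap2 and Tap1. The SD is the spread between mice, and the genes share libraries and vary together. Differences between genes were therefore not tested.

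Across the 12 groups all 9 genes were highest in the EZ of kainate mice on day 7 and next highest in the EZ on day 3. For B2m the group means in CPM were 901 ± 333 in the kainate EZ on day 7, 437 ± 173 on day 3 and 350 ± 381 on day 14, then 218 ± 49.1 in the kainate PIZ on day 3 and 175 ± 54.8 on day 7. The saline EZ groups followed at 105 ± 22.2, 92.4 ± 6.3 and 86.0 ± 12.6 on days 3, 7 and 14, and the kainate PIZ on day 14 was at 83.0 ± 30.4 (SD, n = 4 each). The place of the kainate EZ on day 14 rests on mouse 27 at 921 CPM. The other kainate mice of that group, at 140 to 192 CPM, lay below the kainate PIZ mean of day 3. For B2m each group's range overlapped that of the next group in this order. For the other genes, too, the kainate EZ ranges of days 7 and 3 overlapped, except for H2-K1, whose lowest value on day 7 (230 CPM) was above its highest on day 3 (223 CPM).

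**Figure D1:**
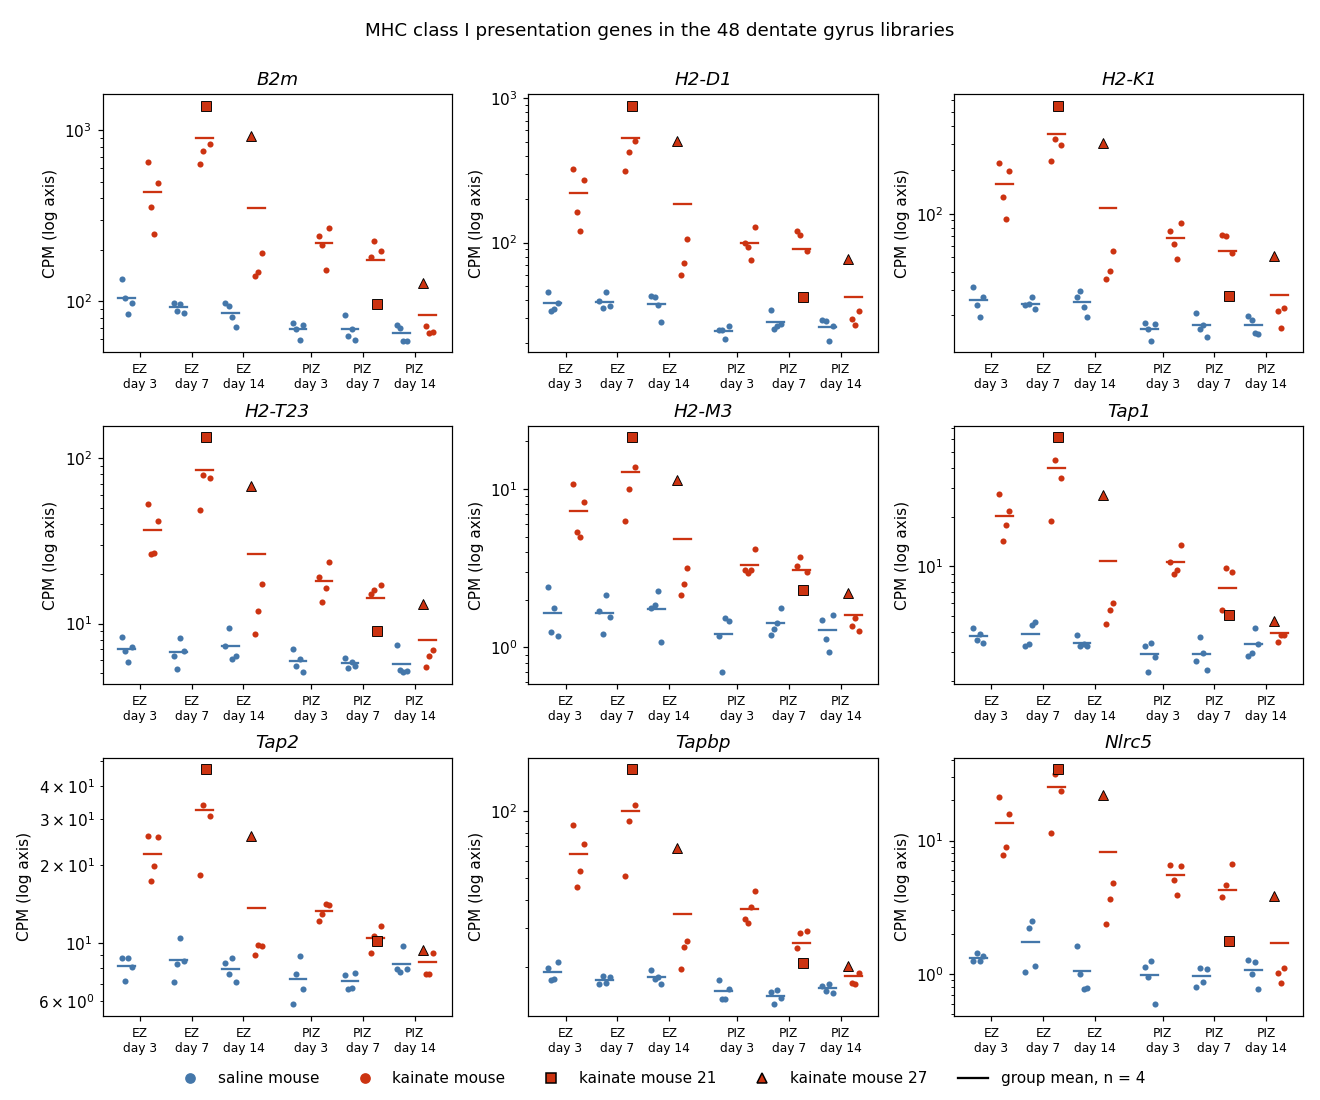
Level of each of the 9 genes in the 48 libraries, in CPM on a log axis, by side and day. Points are libraries of saline (blue) and kainate (red) mice and bars are group means (n = 4); mouse 21 (square) and mouse 27 (triangle) are marked. In the EZ on days 3 and 7 all kainate libraries lie above all saline libraries for all 9 genes, and on day 14 mouse 27 is at 921 CPM for B2m while the other 3 kainate libraries are between 140 and 192.

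The first comparison asked how class I genes differed between kainate and saline mice on the injected side. In the EZ on day 3 all 9 genes rose, by 2.69-fold for Tap2 to 10.1-fold for Nlrc5, where 16.1% of the 21390 genes tested were called higher. A gene was called where edgeR's quasi-likelihood test gave an adjusted p under 0.01 (Benjamini-Hochberg over all genes tested) and a fold change over 1.5. All 4 kainate libraries lay above all 4 saline libraries for all 9 genes, as they did for 23.9% of all genes tested. On day 7 all 9 genes rose again, by 3.76-fold for Tap2 to 14.6-fold for H2-K1, where 20.6% of all genes tested were called higher, and the groups did not overlap for any of the 9, as for 23.7% of all genes. The median log2 fold change of the 9 genes was 2.40 on day 3 and 3.36 on day 7, while that of all genes tested was 0.03 and 0.01.

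B2m, the light chain shared by all class I molecules, was at 649, 356, 249 and 493 CPM in the 4 kainate EZ libraries of day 3 and at 136, 104, 84 and 97.3 CPM in the saline ones. On day 7 it was at 635, 756, 1390 and 829 CPM in kainate mice and at 98.5, 88.3, 97 and 85.8 CPM in saline mice. The lowest kainate library stood above the highest saline library on both days, and mouse 21 was the highest of day 7. The fitted log2 fold change of B2m was 2.05 (SE 0.38, edgeR adjusted p = 3.26e-05) on day 3 and 3.29 (SE 0.39, edgeR adjusted p = 3.57e-08) on day 7.

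The classical heavy chains H2-K1 and H2-D1 rose too, from lower counts than B2m. H2-K1 was at 223, 130, 91.4 and 195 CPM in the kainate EZ on day 3 against 31.3, 23.4, 19.6 and 26.9 CPM in saline mice. On day 7 it was at 230, 324, 553 and 297 CPM against 23.5, 23.9, 26.6 and 22.1 CPM. The saline values of both days lay between 19.6 and 31.3 CPM, and each kainate value was above them. H2-D1 was at 315, 425, 892 and 503 CPM in the kainate EZ on day 7 against 39.1, 35.3, 45.5 and 36.2 CPM in saline mice. The log2 fold change of H2-K1 was 2.66 (SE 0.44, edgeR adjusted p = 7.22e-06) on day 3 and 3.87 (SE 0.46, edgeR adjusted p = 3.34e-08) on day 7, and that of H2-D1 was 2.53 (SE 0.43, edgeR adjusted p = 1.39e-05) and 3.77 (SE 0.46, edgeR adjusted p = 3.80e-08).

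Among the nonclassical heavy chains, H2-T23 was at 48.7, 79.7, 134 and 76.4 CPM in the kainate EZ on day 7 against 6.36, 5.34, 8.22 and 6.86 CPM in saline mice. H2-M3, at a lower level, was at 6.32, 9.94, 21.2 and 13.7 CPM against 1.69, 1.22, 2.14 and 1.55 CPM. Both had their highest value in mouse 21 and no overlap between groups. H2-T23 rose by 2.40 (SE 0.38) on day 3 and 3.66 (SE 0.40) on day 7 on the log2 scale, and H2-M3 by 2.15 (SE 0.38) and 2.96 (SE 0.38), with edgeR adjusted p between 1.93e-08 and 1.81e-05.

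Both peptide transporter subunits rose, as did tapasin. Tap1 was at 18.9, 45, 61.4 and 34.6 CPM in the kainate EZ on day 7 against 3.25, 3.34, 4.39 and 4.59 CPM in saline mice. Tap2 was at 18.2, 33.8, 46.5 and 30.9 CPM against 7.11, 8.34, 10.5 and 8.51 CPM. Tap1 thus started lower than Tap2 and reached a similar level, with log2 fold changes on day 7 of 3.36 (SE 0.37, edgeR adjusted p = 2.05e-08) for Tap1 and 1.91 (SE 0.23, edgeR adjusted p = 3.30e-08) for Tap2. Tapbp was at 51.2, 90.1, 154 and 106 CPM against 16.8, 18.2, 16.9 and 18.1 CPM, a log2 fold change of 2.52 (SE 0.25, edgeR adjusted p = 7.18e-09). On day 3 the log2 fold changes were 2.44 for Tap1, 1.43 for Tap2 and 1.76 for Tapbp, and all 3 were called. The difference in fold change between genes was not tested.

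Nlrc5, the transactivator, was at 21.1, 7.8, 8.92 and 15.9 CPM in the kainate EZ on day 3 against 1.26, 1.43, 1.24 and 1.36 CPM in saline mice. On day 7 it was at 11.3, 31.5, 34.2 and 23.5 CPM against 1.04, 2.21, 2.5 and 1.14 CPM. The lowest kainate library was several times the highest saline library on both days. Its log2 fold change was 3.34 (SE 0.52, edgeR adjusted p = 3.11e-06) on day 3, the highest of the 9 genes, and 3.86 (SE 0.52, edgeR adjusted p = 1.21e-07) on day 7, next to H2-K1 at 3.87. Without mouse 21 all 9 genes were still called in the EZ on day 7, at 3.00 for B2m, 3.41 for H2-D1, 3.56 for H2-K1, 3.35 for H2-T23, 2.60 for H2-M3, 3.08 for Tap1, 1.69 for Tap2, 2.24 for Tapbp and 3.68 for Nlrc5.

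**Figure D2:**
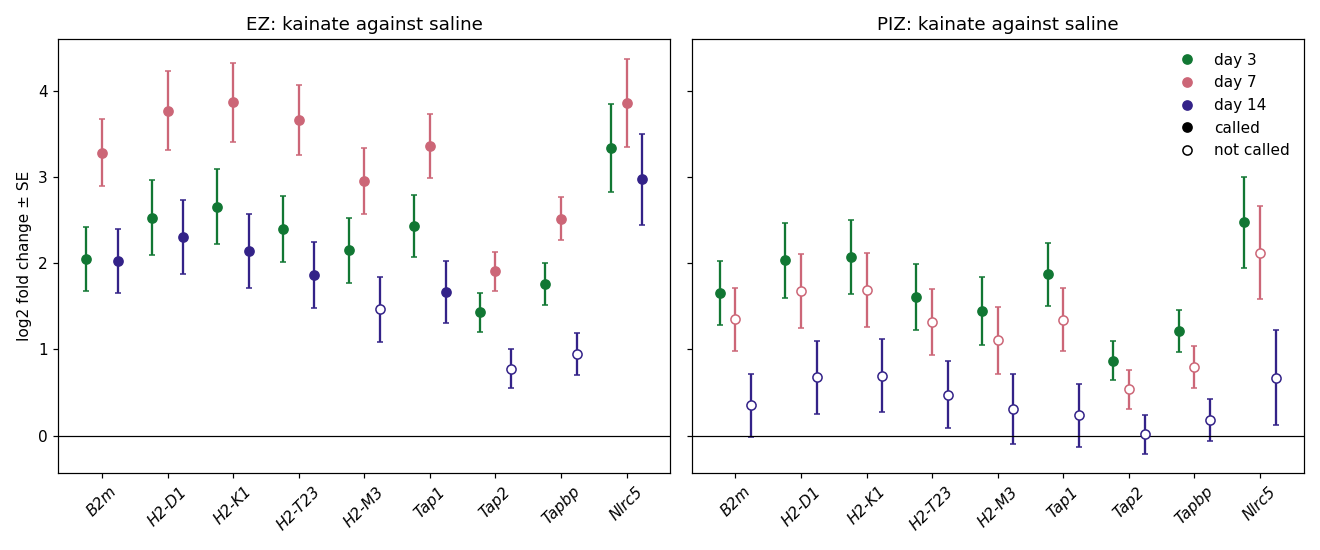
Log2 fold change of kainate over saline mice from the edgeR fit, with its SE, for the 9 genes in the EZ (left) and the PIZ (right) on day 3 (green), day 7 (pink) and day 14 (blue). Filled points are called (adjusted p under 0.01 and fold change over 1.5). All 9 are filled in the EZ on days 3 and 7 and in the PIZ on day 3, 6 in the EZ on day 14, and none in the PIZ on days 7 and 14.

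On day 14 in the EZ, 6 of the 9 genes were called higher (B2m, H2-D1, H2-K1, H2-T23, Tap1 and Nlrc5), where 2.32% of all genes tested were. Without mouse 27 the count was 0 of 9, and over all genes tested the number called higher fell from 496 to 7, which is 0.0323% of them. It was also 0 without saline mouse 31, 1 without saline mouse 39, 3 without saline mouse 24 and 9 without kainate mouse 36. Of all genes tested, the share called higher was then 0.138% without 31, 0.267% without 39, 0.493% without 24 and 4.05% without 36. All kainate libraries lay above all saline libraries for 7 of the 9 genes (not H2-T23 and H2-M3), as for 4.58% of all genes tested.

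B2m was at 921 CPM in mouse 27 on day 14 and at 140, 149 and 192 CPM in the other 3 kainate mice, against 98.2, 94.1, 81.3 and 70.5 CPM in saline mice. H2-K1 was at 306 CPM in mouse 27 and at 35.5, 40.4 and 55.5 CPM in the others, against 26.7, 29.6, 22.9 and 19.5 CPM. Nlrc5 was at 22.1 CPM in mouse 27 and at 2.36, 3.63 and 4.8 CPM in the others, against 1.63, 0.999, 0.769 and 0.787 CPM. In these 3 genes the other kainate mice lay above the saline mice as well, by far less than mouse 27. Taking the median over the 9 genes, mouse 27 was 3.23 log2 units above the saline mean and the other 3 were 0.37, 0.73 and 1.17 above it.

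The log2 fold change of B2m on day 14 was 2.03 (SE 0.38, edgeR adjusted p = 0.00106) with all mice and 0.90 (edgeR adjusted p = 0.246) without mouse 27. That of H2-K1 was 2.15 (SE 0.43, edgeR adjusted p = 0.00191) and 0.83 (edgeR adjusted p = 0.458). Nlrc5 kept the largest value, 2.98 (SE 0.53, edgeR adjusted p = 8.31e-04) with all mice and 1.79 (edgeR adjusted p = 0.0569) without mouse 27. H2-D1, H2-T23 and Tap1 were at 2.31, 1.87 and 1.66 with all mice and at 1.08, 0.80 and 0.63 without mouse 27. H2-M3 at 1.47, Tapbp at 0.95 and Tap2 at 0.78 were not called with all mice (edgeR adjusted p = 0.0134, 0.0127 and 0.0316), and were at 0.59, 0.39 and 0.26 without mouse 27.

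The next comparison asked whether the genes also differed on the side that was not injected. In the PIZ on day 3 all 9 genes rose, by 1.83-fold for Tap2 to 5.57-fold for Nlrc5, where 7.12% of all genes tested were called higher, and no kainate library overlapped the saline libraries, as for 17.1% of all genes. B2m was at 240, 213, 152 and 267 CPM in kainate mice against 74.7, 68.7, 59.3 and 73.2 CPM in saline mice, a log2 fold change of 1.66 (SE 0.37, edgeR adjusted p = 0.00118). Nlrc5 was at 6.51, 5.04, 3.88 and 6.49 CPM against 1.12, 0.954, 1.25 and 0.592 CPM, a log2 fold change of 2.48 (SE 0.53, edgeR adjusted p = 7.16e-04). The classical heavy chains rose as well, with log2 fold changes of 2.07 (SE 0.43) for H2-K1 and 2.03 (SE 0.43) for H2-D1. Tap1 was at 10.7, 9.01, 9.51 and 13.6 CPM against 3.26, 2.25, 3.39 and 2.78 CPM. The log2 fold change was 1.87 (SE 0.36) for Tap1, 1.22 (SE 0.24) for Tapbp and 0.87 (SE 0.22) for Tap2. The count of 9 fell to 6 without kainate mouse 42, where H2-T23, H2-M3 and Tap2 were no longer called, to 6 without saline mouse 41 and to 7 without mouse 29, 37 or 44. The share of all genes called higher was then 5.67% without 42, 4.89% without 41 and 5.33% to 5.75% without the other 3.

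In the PIZ on day 7 none of the 9 genes was called, where 0.15% of all genes tested were called higher. For all 9 genes the 4 kainate libraries nevertheless lay above the 4 saline libraries, as they did for 7.63% of all genes, and all 9 had an unadjusted p under 0.05 and a higher level, as had 9.18% of all genes. B2m was at 181, 225, 97.1 and 196 CPM against 83.6, 62.6, 68.8 and 59.4 CPM, a log2 fold change of 1.35 (SE 0.37, edgeR adjusted p = 0.0516). H2-K1 was at 70.8, 69.7, 27.2 and 53.8 CPM against 20.9, 16.1, 17.2 and 14.2 CPM, a log2 fold change of 1.70 (SE 0.43, edgeR adjusted p = 0.0332). The third value of each kainate series is mouse 21, which had the highest EZ levels of that day. Nlrc5 was at 3.79, 4.68, 1.77 and 6.72 CPM against 0.793, 1.11, 0.877 and 1.09 CPM, a log2 fold change of 2.12 (SE 0.54, edgeR adjusted p = 0.0328). Without mouse 21 none was called either, with B2m at 1.55, H2-K1 at 1.92 and Nlrc5 at 2.38. The call depended on the test: DESeq2 called 3 of the 9 (H2-D1, H2-K1 and Nlrc5), limma-voom called 9, and edgeR on the compared groups alone called 3 (H2-K1, H2-T23 and Tapbp). These tools also called more of all genes higher, 0.741% by DESeq2, 3.23% by limma-voom and 0.661% with the compared groups alone.

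In the PIZ on day 14 none of the 9 was called, where 0.00935% of all genes tested were called higher, and none had an unadjusted p under 0.05. DESeq2 and limma-voom also called 0. Log2 fold changes lay between 0.02 for Tap2 and 0.69 for H2-K1 (edgeR adjusted p between 0.923 and 1). Without mouse 27 they lay between −0.11 and 0.22, with H2-K1 at 0.22, H2-D1 at 0.20 (0.68 with all mice), B2m at 0.06 (0.35) and Nlrc5 at −0.11 (0.67). Of the 9 genes, 1 had all kainate libraries above all saline libraries, namely Tapbp, against 3.7% of all genes. B2m was at 128 CPM in mouse 27 and at 71.9, 65.1 and 66.6 CPM in the other kainate mice, while the saline mice were at 72.6, 69.5, 59 and 59 CPM. Mouse 27 was the highest kainate library of the 4 for all 9 genes on this side too, with a median over the genes of 0.99 log2 units above the saline mean, and the other 3 were between 0.06 and 0.21 above it.

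Because each mouse gave both sides, the injected and the opposite side were also set against each other within mice. For each of the 9 genes, which are not independent of one another, the EZ was above the PIZ in all 12 kainate mice, as it was for 6.74% of all genes tested. In saline mice the EZ was above the PIZ in 6 to 12 of the 12 mice, depending on the gene, and in all 12 for 4 genes, against 1.25% of all genes. For B2m the within-mouse difference in kainate mice had a median of 0.81 log2 units on day 3, 1.94 on day 7 and 1.36 on day 14, and in saline mice 0.55, 0.49 and 0.44. For Nlrc5 the kainate medians were 1.23, 2.26 and 2.00, and the saline medians 0.35, 0.65 and 0.01. Mouse 21 had the widest gap for all 9 genes, 3.83 for B2m and 4.34 for H2-K1, against 1.75 to 2.08 for B2m in the other 3 kainate mice of day 7.

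**Figure D3:**
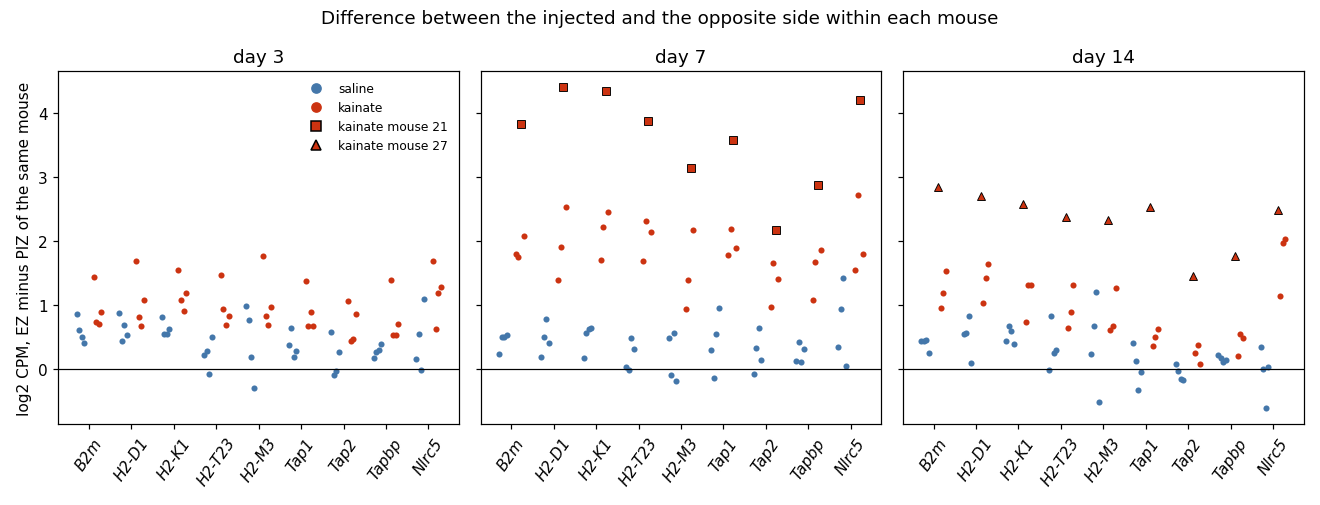
Difference between the EZ and the PIZ of the same mouse, in log2 CPM, for the 9 genes on each day. Points are saline (blue) and kainate (red) mice, and mouse 21 (square) and mouse 27 (triangle) are marked. All kainate points lie above 0, and those of day 7 reach 4.41 for H2-D1 in mouse 21.

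Whether the kainate effect itself differed between sides was tested as the difference of the log2 fold changes. On day 7 the effect in the EZ exceeded that in the PIZ for 7 of the 9 genes, where 7% of all genes tested were called in this direction. The difference was 1.94 (SE 0.52, edgeR adjusted p = 0.0069) for B2m, 2.17 (edgeR adjusted p = 0.00793) for H2-K1, 2.34 (edgeR adjusted p = 0.00324) for H2-T23 and 1.73 (edgeR adjusted p = 0.00191) for Tapbp. H2-D1 at 2.09, Tap1 at 2.02 and Tap2 at 1.37 were also called, while H2-M3 at 1.85 (edgeR adjusted p = 0.0117) and Nlrc5 at 1.74 (edgeR adjusted p = 0.0716) were not. With each mouse as a block the same 7 genes were called, and Nlrc5 had an adjusted p of 0.0113. The count fell to 0 without kainate mouse 21 or saline mouse 20, to 1 without saline mouse 89, kainate mouse 35 or saline mouse 34, and to 2 without saline mouse 33. The share of all genes called in this direction moved as well, to 0% without mouse 21, 0.538% without 20, 0.773% without 89, 0.671% without 35, 2.38% without 34 and 2.8% without 33. Leaving out kainate mouse 23 or 26 gave 8 of the 9 genes, with 10.7% and 9.28% of all genes. Without mouse 21 the median difference of the 9 genes was 1.46, and it was 2.01 without saline mouse 20.

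On day 3 the difference between sides was 0.39 to 0.86 and none of the 9 was called, where 0.0374% of all genes tested were, and none had an unadjusted p under 0.05 in edgeR (limma-voom called Tap2 and Tapbp, and 4.08% of all genes, in this direction). On day 14 it was 0.76 to 2.30, with none of the 9 called by edgeR, DESeq2 or limma-voom and 0% of all genes tested called by edgeR. All 9 then had an unadjusted p under 0.05, as had 5.78% of all genes tested in this direction. Without mouse 27 the difference on day 14 was 0.26 to 1.90, and 3 of the 9 had an unadjusted p under 0.05.

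The change of the kainate effect between days was tested in the same way. In the EZ the effect on day 7 was 0.48 (Tap2) to 1.26 (H2-T23) log2 units above that on day 3, and none of the 9 was called (edgeR adjusted p between 0.302 and 0.828), where 0.112% of all genes tested were called higher. DESeq2 and limma-voom called 0 as well, while 5 of the 9 had an unadjusted p under 0.05, as had 7.95% of all genes in this direction. The effect on day 14 was 0.89 (Nlrc5) to 1.80 (H2-T23) log2 units below that on day 7, again with none called (edgeR adjusted p between 0.0104 for Tapbp and 0.394 for Nlrc5), where 0.15% of all genes tested were called lower, and 8 of the 9 had an unadjusted p under 0.05, as had 18.6% of all genes in this direction. This count depended on single mice: all 9 were called when kainate mouse 27 was left out, 4 (H2-T23, Tap1, Tap2 and Tapbp) when mouse 23 was, and 1 (Tapbp) when mouse 26 was. Of all genes, 13.1% were then called lower without mouse 27, 6.8% without 23 and 2.79% without 26. It also depended on the tool, with 3 called by DESeq2 (H2-T23, Tap2 and Tapbp) and 9 by limma-voom, where 3.38% and 18.2% of all genes were called lower. In the PIZ the effect on day 7 was 0.29 to 0.53 log2 units below that on day 3, with none of the 9 called by any of the 3 tools or at an unadjusted p under 0.05, where 0.00935% of all genes tested were called lower.

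Saline mice give the difference between sides without kainate, in which the injection and the brain side cannot be told apart. Over the 3 days their EZ exceeded their PIZ by 0.12 (Tap2) to 0.56 (H2-K1) log2 units, and none of the 9 was called (edgeR adjusted p between 0.515 and 0.811), where 0.0234% of all genes tested were called higher. This fit does not pair the sides. With each mouse as a block none of the 9 was called either (edgeR adjusted p between 0.232 and 0.693), where 0.0561% of all genes tested were. B2m, H2-D1 and H2-K1 had an unadjusted p under 0.05, as had 5.03% of all genes tested in this direction, and DESeq2 and limma-voom called 0.

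The 9 genes tended to be high or low in the same libraries of a group. After the group means were removed, the correlation between any pair of the 9 (36 pairs, 48 libraries) lay between 0.66 and 0.98, with B2m and H2-K1 at 0.98. Mice 21 and 27 weigh on this range, which was 0.25 to 0.92 over the 44 libraries without them, and the median of the pairs went from 0.81 to 0.58. The correlation of each gene with the mean of the other 8 was at least 0.81, and 1.98% of the 21381 other genes tested reached that value with the mean of the 9. Without these mice the smallest was 0.60, which 2.83% of the other genes reached. These libraries share mice, and 7 of the genes share a chromosome region. Over the 12 group means the pairwise correlation lay between 0.973 and 0.998. By the same measure the 3 other genes whose group means were most like the mean of the 9 were Bst2 (r = 0.998), which encodes the virus-tethering protein tetherin, Parp14 (r = 0.998), an ADP-ribosyltransferase, and Trim34a (r = 0.997), a TRIM family gene. Bst2 had log2 fold changes of 3.62, 4.52 and 2.72 in the EZ on days 3, 7 and 14 and of 2.80, 2.15 and 0.84 in the PIZ. All 3 were called in the comparisons of the EZ and of the PIZ on day 3, and none in the PIZ on days 7 and 14, a pattern that their choice by group means had largely fixed. Without mouse 27 none of the 3 was called in the EZ on day 14, with Bst2 at 1.16, Parp14 at 0.73 and Trim34a at 0.82.

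The other genes of the pathway are described by lists. Of 21 other class I heavy chain and class I-like genes, 17 were tested, and H2-M1, H2-M9 and H2-M11 had no count in any library. For every list the counts called higher on days 3, 7 and 14 stand against 16.1%, 20.6% and 2.32% of all genes in the EZ and 7.12%, 0.15% and 0.00935% in the PIZ. In the EZ 14, 15 and 6 of the 17 were called higher on these days, and in the PIZ 11, 0 and 0, with median log2 fold changes of 1.55, 3.00, 1.30, 1.64, 1.08 and 0.58 in that order. H2-T22, a nonclassical heavy chain, rose by 0.97 and 1.93 on the log2 scale in the EZ on days 3 and 7. Fcgrt, the heavy chain of the neonatal Fc receptor, which pairs with beta-2-microglobulin and carries immunoglobulin, rose in the EZ on day 7 by 1.15 and was at 0.45 on day 3 (not called). Counts of these heavy chains have the same uncertainty from paralogs as those of H2-K1 and H2-D1.

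The proteasome genes are given by type, and the types were not tested against each other. The 5 genes of the immunoproteasome, the form of the protease that interferon induces, were all called in the EZ on days 3 and 7, 2 on day 14 (Psmb8 and Psmb9), 2 in the PIZ on day 3 (the same pair) and 0 thereafter, where all genes were called higher at 16.1%, 20.6% and 2.32% in the EZ and 7.12% in the PIZ on day 3. Psmb8, a catalytic subunit, rose by 2.47 (SE 0.42), 3.80 (SE 0.44) and 2.12 (SE 0.42) in the EZ on days 3, 7 and 14 and by 2.18 (SE 0.43) in the PIZ on day 3. Psmb9, which lies beside Tap1, rose by 2.46, 3.37 and 1.90 in the EZ and by 1.64 in the PIZ on day 3. Psmb10, the remaining catalytic subunit, and Psme1, of the proteasome activator, rose less, by 0.89 and 0.92 on day 3 and by 1.28 and 1.58 on day 7 in the EZ. Psmb8, Psmb9 and Psmb10 take the place of the constitutive subunits Psmb5, Psmb6 and Psmb7, of which none was called in any of the 6 comparisons, with medians between −0.16 and 0.11. Psmb6 was at 0.31 and 0.29 in the EZ on days 3 and 7, with edgeR adjusted p = 0.00177 and 0.00307 but a fold change under 1.5. Of 8 genes for peptide loading and trimming, 6 and 4 were called higher in the EZ on days 3 and 7, 0 on day 14, and 1 (Erap1), 0 and 0 in the PIZ. The 1 of 8 in the PIZ on day 3 is near the 7.12% of all genes. Erap1, the aminopeptidase that trims peptides in the endoplasmic reticulum, rose by 1.31 and 1.80 in the EZ on days 3 and 7 and by 0.81 in the PIZ on day 3. Tapbpl, a tapasin relative, rose by 1.21 and 1.66 in the EZ, and Pdia3, a disulfide isomerase of the loading complex, by 0.90 on day 3, and was called on day 7 too. The chaperone gene Calr rose by 0.74 and 0.73 in the EZ on days 3 and 7, and Canx was at 0.30 and 0.49 (not called).

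**Figure D4:**
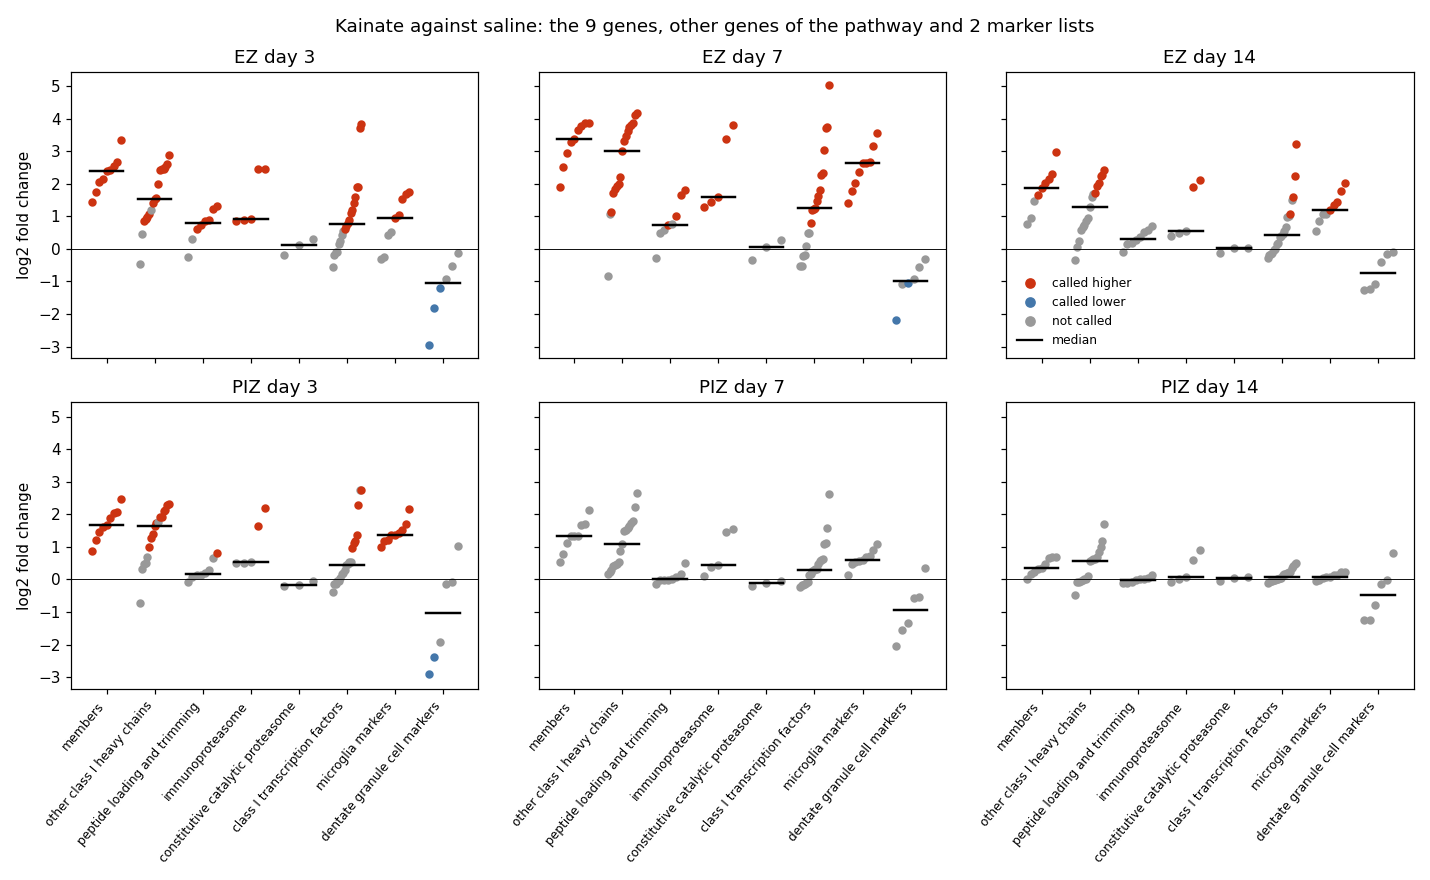
Log2 fold change of kainate over saline mice for the 9 genes ("members"), 5 lists of other pathway genes and 2 marker lists, in the 6 comparisons. Each point is 1 gene (red called higher, blue called lower, grey not called) and the bar is the list's median. In the EZ on day 7 the medians are 3.36 for the 9 genes, 3.00 for the other heavy chains and 0.05 for the constitutive proteasome.

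Of 20 genes for transcription factors that act on class I genes, 12, 13 and 4 were called higher in the EZ on days 3, 7 and 14 (all genes 16.1%, 20.6% and 2.32%), and 6, 0 and 0 in the PIZ (7.12% on day 3). Irf1, an interferon response factor, rose by 1.09 and 1.63 in the EZ on days 3 and 7 and by 0.97 in the PIZ on day 3. The 4 called in the EZ on day 14 were the interferon regulatory factors Irf7 (3.23) and Irf8 (2.24), of which Irf8 is also a myeloid lineage factor, and the NF-kappa B genes Nfkb2 and Relb, the last at 1.08. Creb1 and Nfyb, which encode proteins that bind the X2 and Y boxes, were not called in any of the 6 comparisons (log2 fold change −0.17 and 0.25 in the EZ on day 3). Of 11 genes for interferons, their receptors and JAK kinases, 9 were tested, and 3, 4 and 1 were called higher in the EZ and 3, 0 and 0 in the PIZ, against these same shares of all genes. Those called in the EZ on day 3 were Ifnar2 (1.11), a receptor subunit for type I interferon, and Socs1 (2.96) and Socs3 (4.30), which inhibit JAK signaling in feedback. On day 7 they were Ifnar2, Socs1, Socs3 (4.85) and Ifngr1 (2.11), a receptor subunit for interferon gamma. On day 14 the 1 gene was Socs3 (3.69), and in the PIZ on day 3 they were Ifngr1 (1.03), Ifnar2 (0.78) and Socs3 (4.33). Jak1 and Ifngr2, the most abundant of them, were not called in any comparison. Ifng, which encodes interferon gamma, had at most 2 counts in any library, and was not tested.

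A further list held 8 genes for receptors that bind class I or are related to such receptors, and not all of them bind class I. Of these 4 were tested, and 3, 3 and 1 were called higher in the EZ and 1, 0 and 0 in the PIZ. Of all genes, 16.1%, 20.6% and 2.32% were called higher in the EZ and 7.12% in the PIZ on day 3. Lilrb4a, an inhibitory receptor of myeloid cells, rose by 4.97 (SE 0.70), 6.10 (SE 0.76) and 3.46 (SE 0.70) in the EZ on days 3, 7 and 14. Pirb, an inhibitory class I receptor known from myeloid cells and neurons, rose by 2.65 and 3.71 in the EZ on days 3 and 7 and by 4.15 (SE 0.69) in the PIZ on day 3. Klrk1, the receptor NKG2D of natural killer and T cells, rose by 2.59 and 2.73 in the EZ on days 3 and 7. Cd8a, the coreceptor of cytotoxic T cells, was too low to be tested. It had 38 counts in the EZ of mouse 27 on day 14, against 7, 2 and 1 in the other kainate mice, and 22 in the EZ of mouse 21 on day 7, against 4, 10 and 6. Without mouse 27 the EZ counts of day 14 were 0 for every list of other pathway genes. The log2 fold changes of that day were then 1.01 for Psmb8, 0.96 for Psmb9, 1.33 for Irf7, 1.06 for Irf8, 0.65 for Nfkb2, 0.47 for Relb, 0.93 for Socs3 and 1.98 for Lilrb4a, with edgeR adjusted p from 0.252 to 1.

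Some cell type markers changed in the same comparisons as the class I genes and others did not. In bulk tissue fewer cells of a type and less RNA per cell cannot be told apart, nor can more cells and more RNA. Of 9 microglia markers, 5, 9 and 5 were called higher in the EZ on days 3, 7 and 14, and 9, 0 and 0 in the PIZ, the same 4 comparisons in which class I genes were called. Of all genes, 16.1%, 20.6% and 2.32% were called higher in the EZ on these days and 7.12% in the PIZ on day 3. The medians of the list were 0.95, 2.65 and 1.20 in the EZ and 1.37, 0.59 and 0.09 in the PIZ, against 2.40, 3.36 and 1.87 and 1.66, 1.35 and 0.35 for the 9 genes. Csf1r, the receptor on which microglia depend for survival, rose by 0.95, 2.66 and 1.20 in the EZ and by 1.71 in the PIZ on day 3. Those called in the EZ on day 3 also included Cx3cr1 (1.06), Tmem119 (1.54) and Aif1 (1.75), and on day 14 Cx3cr1 (1.36), Aif1 (2.04) and Gpr34 (1.43). Without mouse 27, 0 of the 9 markers and 0.0323% of all genes were called higher on day 14, with Csf1r at 0.38, Cx3cr1 at 0.48, Aif1 at 0.74 and Gpr34 at 0.46. No microglia marker was at 0 in all 4 libraries of any group.

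The summed level of the 9 microglia markers in kainate mice was 1180 to 1920 CPM in the EZ on day 3, 1520 to 5190 on day 7 and 509 to 2680 on day 14, and 943 to 1140, 421 to 787 and 373 to 451 CPM in the PIZ. In saline mice it was 413 to 866 CPM in the EZ and 318 to 437 in the PIZ. Mouse 21 had the highest EZ sum of day 7 at 5190 CPM and the lowest PIZ sum at 421, and mouse 27 had 2680 CPM in the EZ on day 14 against 509, 574 and 693 in the other kainate mice. These mice differed in other marker sums too. In the EZ, mouse 27 was at 11900 CPM for astrocyte markers against 5790 to 6580 in the other kainate mice of day 14, at 1760 for neuronal markers against 2630 to 3680, at 436 for granule cell markers against 594 to 1040, and at 2.58 for choroid plexus markers against 13.4 to 26.2. The choroid plexus sum was mostly Kl, which averaged 17 CPM over the 48 libraries, while Ttr averaged 0.836 CPM. Mouse 21 was at 10000 CPM for oligodendrocyte markers against 3410 to 6570 in the others of day 7, and at 234 for granule cell markers against 323 to 817. The part of microglial number or state, or of these other cell types, in the class I differences was not tested.

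Of 8 macrophage and monocyte markers, 4, 5 and 0 were called higher in the EZ and none in the PIZ, against 16.1% and 20.6% of all genes in the EZ on days 3 and 7. They were Ms4a7 (4.72), F13a1 (2.40), Ccr2 (3.82) and Plac8 (3.95) on day 3, joined on day 7 by Mrc1 (1.14). Their summed level was 28.7 to 101 CPM in the kainate EZ on day 3, 19.7 to 91 on day 7 and 10.3 to 36.7 on day 14, against 10.6 to 23.1 in saline EZ libraries, far under that of the microglia markers. Of 10 T cell markers 4 were tested, and Cd4 (4.01), which myeloid cells can also express, and Trbc2 (4.36) were called in the EZ on day 7, where 20.6% of all genes were. The T cell sum was at most 9.83 CPM in any library, in the EZ of mouse 27, with Cd8b1 or Cd3d at 0 in all 4 libraries of several groups. Of 7 natural killer cell markers 1 was tested, Eomes, which neural progenitors also express and which fell by 2.77 in the EZ on day 3. Over the 48 libraries Eomes averaged 1.68 CPM and no other marker of this list more than 0.132 CPM (Gzma). The sum of the list therefore mostly follows Eomes. In the PIZ on day 7, where class I was higher without a call, Eomes was at 1.83 (SE 0.51, edgeR adjusted p = 0.0545). The sum of the 7 markers was there 5.42, 8.4, 1.9 and 8.01 CPM in kainate mice against 1.14 to 2.08 CPM in saline mice, with mouse 21 the lowest kainate library as it was for most class I genes. The T cell sum was 2.8 to 3.26 CPM against 1.39 to 2.32 CPM in these libraries. Their part in the class I values was not tested.

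Of 7 astrocyte markers 3, 4 and 2 were called higher in the EZ (all genes 16.1%, 20.6% and 2.32%) and 3, 0 and 0 in the PIZ (7.12% on day 3). Gfap, an intermediate filament of reactive astrocytes, was called in each of these 4 comparisons, at 1.28, 3.31 and 2.21 in the EZ and 3.65 in the PIZ on day 3, as was Aqp4, a water channel, at 0.87, 1.90, 1.20 and 1.42. Without mouse 27 neither was called in the EZ on day 14, with Gfap at 1.08 and Aqp4 at 0.40. The others called higher were Aldh1l1 in the EZ on days 3 and 7 and in the PIZ on day 3, and Slc1a3 in the EZ on day 7. Slc1a2 (−0.95) and Aldoc (−0.92) were called lower in the EZ on day 3, where 8.61% of all genes were. Of 7 endothelial markers Cldn5, Pecam1 and Cdh5 rose in the EZ on days 3 and 7, by 0.83 to 1.34, 3 of 7 over the same 16.1% and 20.6%, and none was called elsewhere. Among 6 oligodendrocyte markers Mag (1.07) and Cnp (0.94) rose in the EZ on day 7, 2 of 6 where 20.6% of all genes were called higher, which is near the background.

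Neuronal markers went the other way in the EZ on days 3 and 7. Of all genes tested, 8.61% and 11.9% were called lower in the EZ on days 3 and 7, and 1.57% in the PIZ on day 3. Of 5 neuronal markers, 3 and 4 were called lower in the EZ on days 3 and 7: Snap25 (−1.28 and −1.53), Syt1 (−1.27 and −1.61), Stmn2 (−2.06 on day 7) and, on day 7, Rbfox3 (−1.21). None was called in the EZ on day 14 (median −0.11) or in the PIZ (medians −0.15, −0.10 and 0.15 on days 3, 7 and 14). Of 6 granule cell markers, Calb1 and Tdo2 were called lower in the EZ on days 3 and 7 and in the PIZ on day 3. Dsp was called lower in the EZ on day 3. Prox1, Dock10 and C1ql2 were not called in any comparison. C1ql2 was higher in the kainate PIZ, at 164 ± 41.9 against 80.7 ± 24.8 CPM in saline mice on day 3. On day 14 it was there at 207 ± 21.2 against 117 ± 33.3 CPM (SD, n = 4). In the EZ it was lower, at 63 ± 71.1 against 119 ± 13.3 CPM on day 3 and 74.2 ± 75.8 against 139 ± 36.8 CPM on day 7. Among 5 choroid plexus markers Kl was called lower in the EZ on days 3 and 7 and Aqp1 higher on day 3, and none of 5 blood markers was called. The part of any of these cell types in the class I differences was not tested.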

How the data were processed

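RNA from the dorsal dentate gyrus of both sides of 24 mice was sequenced. Per the labels and the study's methods, the authors trimmed reads with fastp 0.20.1, aligned them to GRCm39 with HISAT2 2.2.1 and counted them with strand per Gencode M28 gene using featureCounts of Subread 1.6.4. The deposited values are raw counts for 55357 genes in 48 libraries (17762656 to 25712975 counts, median 22108562.5).

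Counts were fitted with edgeR 4.0.16 in R 4.3.3 (quasi-likelihood test, TMM scaling, filterByExpr, 21390 genes, 1 mean for each of the 12 groups, all 48 libraries). A call needed an adjusted p (Benjamini-Hochberg) under 0.01 and a fold change over 1.5, the study's thresholds. CPM used TMM library sizes, and RPKM divided it by the summed exon length in Gencode M39, to which 54749 of the gene IDs matched. The 2 libraries of a mouse share its number in the titles, and their deviations from the group means correlated at −0.05 to 0.38 over the 24 mice. Alternatives were DESeq2 1.42.0, limma 3.58.1 (voom with quality weights), DESeq2-style size factors in edgeR, no filter, the compared groups alone, mouse as a block and leaving out each mouse. The procedure was tested on simulated data.

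The 9 genes and the gene lists were chosen with earlier results of these data known, so no list is independent evidence. Named genes were the 9, the 2 of highest mean CPM among the tested genes of a list, Irf1, Psmb8, Psmb9, Psmb10, Cd8a and Ifng, the 3 genes of most similar pattern, and genes behind counts of 5 or fewer; some genes under this rule are not reported here.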

Additional observations from a re-analysis of the deposited data

Results flagged for a closer look

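In groups of 4 libraries, 1 library lay far from the other 3 (its gap to the nearest, over the range, was above Dixon's critical value) for 15 of the 108 combinations of gene and group, where chance gives about 1 in 20 and the same rule marked 6.79% of the combinations over all genes tested. The 9 genes correlate within groups, so the 15 are not independent, and mouse 27 accounts for 12 of them. In the kainate EZ on day 14, 16% of all genes had a library apart, and for 14.3% of all genes it was mouse 27. Of the 15, 9 were mouse 27 in the kainate EZ on day 14: B2m at 921 CPM, H2-D1 at 503, H2-K1 at 306, H2-T23 at 68.3, H2-M3 at 11.4, Tap1 at 27.4, Tap2 at 25.9, Tapbp at 68.2 and Nlrc5 at 22.1 CPM. The other 3 kainate mice were between 140 and 192 CPM for B2m, 59.8 and 106 for H2-D1, and 2.36 and 4.8 for Nlrc5.

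The PIZ library of the same mouse stood apart for B2m at 128 CPM, H2-D1 at 77.3 CPM and Nlrc5 at 3.87 CPM, with the others at most 71.9, 33.7 and 1.1 CPM. The remaining cases were H2-M3 at 4.15 CPM in the PIZ of kainate mouse 42 on day 3, H2-T23 at 7.38 CPM in the PIZ of saline mouse 24 on day 14 and Tap2 at 9.74 CPM in the PIZ of saline mouse 39 on day 14.

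The kainate effect differed between the EZ and the PIZ on day 7 by the test of the difference itself for 7 genes, where 7% of all genes were called in this direction. Without kainate mouse 21 or saline mouse 20 the count was 0, and 0% and 0.538% of all genes were called. The difference in log2 fold change was 1.94 for B2m, 2.09 for H2-D1, 2.17 for H2-K1, 2.34 for H2-T23, 2.02 for Tap1, 1.37 for Tap2 and 1.73 for Tapbp.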

How the results depend on the processing

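The 9 calls in the EZ on day 3 and the 9 on day 7 held under every alternative that gives them, leaving out each mouse included. Other scaling in edgeR kept all 13 counts and all 54 fold changes on their side of the threshold. Shares in brackets are of all genes tested in the same fit and direction. Without the filter on low counts, 4 genes (2.24% of all genes) in place of 7 (7%) were called for the difference between sides on day 7. With the compared groups alone, 0 (0%) were called in the EZ on day 14 and 3 (0.661%) in the PIZ on day 7. With limma-voom, 1 (0.159%) was called in the EZ on day 14, 9 (3.23%) in the PIZ on day 7, 2 (4.08%) for the difference between sides on day 3 and 9 (18.2%) for the EZ on day 14 against day 7. With DESeq2, 8 (3.3%) were called in the EZ on day 14 in place of 6 (2.32%), 3 (0.741%) in the PIZ on day 7 and 3 (3.38%) for the EZ on day 14 against day 7. With mouse as a replicate block, which can be fitted only for the contrasts within mice, 7 genes were called for the difference between sides on day 7 and 0 on day 3, on day 14 and in saline mice, so the pairing changed no call.

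Leaving out each mouse in turn gave 0 to 9 calls in the EZ on day 14, 6 to 9 in the PIZ on day 3, 0 to 8 for the difference between sides on day 7 and 0 to 9 for the EZ on day 14 against day 7. Some fold changes in the PIZ on day 14 turned sign, none of them called: Tap2 was at −0.04 without kainate mouse 27, −0.01 without saline mouse 24, −0.02 without saline mouse 28, −0.03 without kainate mouse 40 and 0 without saline mouse 31, within a range of −0.04 to 0.10 over the 8 mice, and Nlrc5 was at −0.11 without kainate mouse 27, within a range of −0.11 to 0.90. In alternatives chosen after seeing the data, the other heavy chains called in the EZ on day 14 went from 6 to 0 without mouse 27, the immunoproteasome genes from 2 to 0, the transcription factors from 4 to 0 and the astrocyte markers from 2 to 0; the fold changes of named genes without mouse 27, and the correlations within groups without mice 21 and 27, were added at the same stage. The cause of these changes was not tested.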
